A study of Mus musculus with 6 samples.

Results

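The NRF2 pathway genes described here are the transcription factor gene Nfe2l2, its inhibitor gene Keap1 and 8 NRF2 target genes of heme, quinone, thioredoxin and NADPH metabolism, namely Hmox1, Blvrb, Nqo1, Txnrd1, Srxn1, Prdx1, G6pdx and Me1. They were taken by symbol from the deposited expression matrix, by a rule that uses no measured value, although earlier results of these data were known when the genes were chosen. Gene positions are on GRCm38 as annotated by GENCODE M21. All 10 were among the 20756 listed genes and among the 12195 tested, which needed 1 CPM or more in 3 or more libraries. CPM is a gene's reads scaled to a common library total. The RNA came from untreated mouse tumor organoids, epithelial cultures grown in basement membrane extract with EGF, derived from an intestinal tumor's liver metastasis on the C57BL/6 background (tissue label small intestine) and harvested 72 h after plating. The sgPrkci organoids carried a CRISPR guide against Prkci (described in the labels as PKClambdaKO, 3 libraries), and the control organoids carried a control guide (sgScr, spelled sgScbr in the genotype label and described as WT, 3 libraries). Prkci encodes the atypical protein kinase C lambda/iota. The series calls the libraries biological replicates, but the sources used here do not give the number of clones or cultures behind each guide, so p-values measure only the spread between these libraries. In bulk RNA, fewer cells that express a gene and less RNA per cell cannot be told apart.

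NRF2, the protein of Nfe2l2, is a stress-activated transcription factor that pairs with small MAF proteins on the antioxidant response element. In unstressed cells KEAP1 presents NRF2 to the CUL3 ubiquitin ligase for destruction, and oxidants or electrophiles that modify KEAP1 let newly made NRF2 accumulate. Control of NRF2 is therefore largely at the protein level, which RNA does not report, and target transcripts are the usual readout. In the gut epithelium and in intestinal tumors the pathway is known for detoxification and for supply of reducing power.

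RefSeq promoters (GRCm38.p6, 250 bases before to 50 bases after each start) were matched for 9 of the 10 genes, all but Hmox1. They are shown so that the presence or absence of the motif that NRF2 is known to bind can be set beside each gene's change. The core of the antioxidant response element was searched as TGACNNNGC on both strands. A second form, TGANTCAGC, was added after the promoters were seen, and the sequence TGACTCAGC is a match to both. The core was present in a promoter of 6 of the 9 genes, against 14.0% of the 27025 genes with a promoter in the table, and the second form in 3 of the 9, against 1.37%. The genes were chosen as NRF2 regulators and known targets, and the second form from these same promoters. Neither share is therefore a test. The 9 genes have 13 promoters in that table, and the Txnrd1 match is in the second of its promoters. The 30 bases around each match follow, read 5′ to 3′ on the strand that holds it, with the match in capitals.
Nfe2l2, chr2:75704884-75704913, minus strand: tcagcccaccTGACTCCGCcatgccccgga
Txnrd1, chr10:82859104-82859133, minus strand: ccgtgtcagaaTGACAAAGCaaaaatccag
Srxn1 upstream, chr2:152105469-152105498, plus strand: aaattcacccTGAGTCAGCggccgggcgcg
Srxn1 downstream, chr2:152105542-152105571, minus strand: gtgtctcactcTGACCTAGCtgcccactgc
Prdx1, chr4:116685456-116685485, minus strand: cctacgggggaTGACTCAGCgctttccctg
G6pdx, chrX:74428918-74428947, plus strand: ggcgtgtgcttTGACTGAGCtgacccgcct
Me1, chr9:86695901-86695930, minus strand: gatgccgccgTGACTCAGCgcttctcgcgg

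The same letters, TGACTCAGC, lay 125 to 133 bases before the Prdx1 start and across the Me1 start. The upstream Srxn1 match lay 37 to 45 bases before its start, the G6pdx match 49 to 57, the Txnrd1 match 84 to 92 and the Nfe2l2 match 232 to 240. The promoters of Keap1, Nqo1 and Blvrb held neither form in this window. A match is a string of letters and not a measured binding site. For the substrate and repair pair Prdx1 and Srxn1, which encode a peroxiredoxin and the enzyme that restores overoxidized peroxiredoxins, the 250 bases before the start are given whole, read on the gene's strand (plus for both), because Srxn1 fell and Prdx1 did not pass the test. The capitals are the match as it reads on that strand, which for Prdx1 is the reverse complement of the letters above. The other Srxn1 match lay 29 to 37 bases after the start.
Srxn1, chr2:152105274-152105523: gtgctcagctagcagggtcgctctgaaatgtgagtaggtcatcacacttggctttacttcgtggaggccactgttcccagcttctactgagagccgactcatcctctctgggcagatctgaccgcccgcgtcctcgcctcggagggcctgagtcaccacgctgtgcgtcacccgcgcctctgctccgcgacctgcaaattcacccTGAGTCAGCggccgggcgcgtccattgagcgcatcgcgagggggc
Prdx1, chr4:116685349-116685598: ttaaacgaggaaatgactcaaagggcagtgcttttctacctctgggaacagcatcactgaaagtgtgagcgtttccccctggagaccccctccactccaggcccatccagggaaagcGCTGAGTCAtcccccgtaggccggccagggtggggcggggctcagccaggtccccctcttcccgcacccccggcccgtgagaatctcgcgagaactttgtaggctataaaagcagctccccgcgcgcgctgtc

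Prkci itself was at 52.4 ± 4.99 CPM in sgPrkci and 54.9 ± 8.60 CPM in sgScr (SD, n = 3 each) and its groups overlapped, but a 3' tag outside the edited site does not check the knockout. Depth ran from 2141125 to 2815760 reads in sgPrkci libraries and from 2821908 to 3048170 reads in sgScr libraries, so that 1 read was worth 0.328 to 0.467 CPM. Together the 10 genes took 4652 to 6247 reads in sgPrkci libraries and 7919 to 8625 reads in sgScr libraries. These sums are not scaled to depth, which was lower in every sgPrkci library. The epithelial markers Epcam, Cdh1, Krt8, Krt18, Krt19, Cldn7 and Cldn4 summed to 3668 to 4071 CPM in sgPrkci and to 3427 to 3957 CPM in sgScr. Of these 7 genes 2 were higher and 2 lower in sgPrkci (limma adjusted p under 0.05). Of the markers of the intestine, Vil1, Lgr5 and Cdx2 were detected in every library. Olfm4 and Alpi were at or near 0, and Lyz1 had no read in any sgPrkci library. The intestinal markers were not alike in the groups. Of the 4 that were tested 2 were higher and 1 lower in sgPrkci (limma adjusted p under 0.05). Cdx1 and Fabp2 were, like Olfm4, Alpi and Lyz1, not tested, and Chga is not among the genes analysed here. Of 9 leukocyte and macrophage markers 5 are in the table, and of these Mrc1 averaged 66.0 ± 7.36 CPM in sgPrkci and 1.12 ± 0.476 CPM in sgScr. Cd68 was also higher, at 10.1 ± 1.87 CPM in sgPrkci and 5.86 ± 1.32 CPM in sgScr (limma adjusted p = 0.029, DESeq2 adjusted p = 0.083). The Cd68 call ended without sgPrkci replicate 1 or 3 or sgScr replicate 2 or 3 (limma adjusted p = 0.097 to 0.11). Cd14, the other tested marker of that list, did not pass (log2 fold change 0.08). Ptprc and Lyz2 averaged under 1 CPM in each group, and Adgre1 and Csf1r are not among the genes analysed here. The summed level of that list was 76.4 to 87.1 CPM in sgPrkci libraries and 13.1 to 13.5 CPM in sgScr libraries. Erythroid, fibroblast and endothelial marker lists summed to at most 2.35 CPM in any library, and hepatocyte markers to 0.710 to 1.87 CPM in sgPrkci and 1.97 to 16.4 CPM in sgScr. The organoid populations also differed in Y-linked RNA, with 336 reads of 4 Y-linked genes in sgPrkci and 1 in sgScr. Xist was near 0 in both groups, with 2 reads over the sgPrkci libraries and 4 over the sgScr libraries. The sgPrkci libraries had 107, 100 and 129 of the Y-linked reads, so that population carries Y-linked genes. For sgScr, with next to no reads of either kind, the sex is not given by these values. Every comparison of the groups carries the Y-linked difference, and its part in the results was not tested.

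Of the 10 transcripts 6 were lower in sgPrkci organoids at an adjusted p under 0.05, 0 were higher and 4 did not pass. At an unadjusted p under 0.05, 0 were higher in limma, edgeR or DESeq2. The genes that fell were Nfe2l2 itself and the targets Hmox1, Nqo1, Txnrd1, Srxn1 and Blvrb. Keap1, Prdx1, G6pdx and Me1 did not pass. Of all tested genes 20.5% were lower and 11.4% higher in sgPrkci, 31.8% in all. The median log2 fold change of the 10 genes was -0.65, beside -0.11 over all tested genes. The test was limma on log2(CPM + 1), adjusted by Benjamini-Hochberg over all 12195 genes. Fold changes are given on that log2 scale as sgPrkci minus sgScr, and low genes appear less changed on it than they are. Adjusted p-values of genes below are from limma unless another tool is named. For 7 of the 10 genes every sgPrkci library was below every sgScr library, which was so for 27.1% of all tested genes. Under edgeR, TMM scaling, DESeq2 and removal of chromosome medians 5 of the 10 were lower, all but Blvrb of the 6, where the share of all tested genes called lower was 14.9%, 14.9%, 9.17% and 13.3%.

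**Figure D1:**
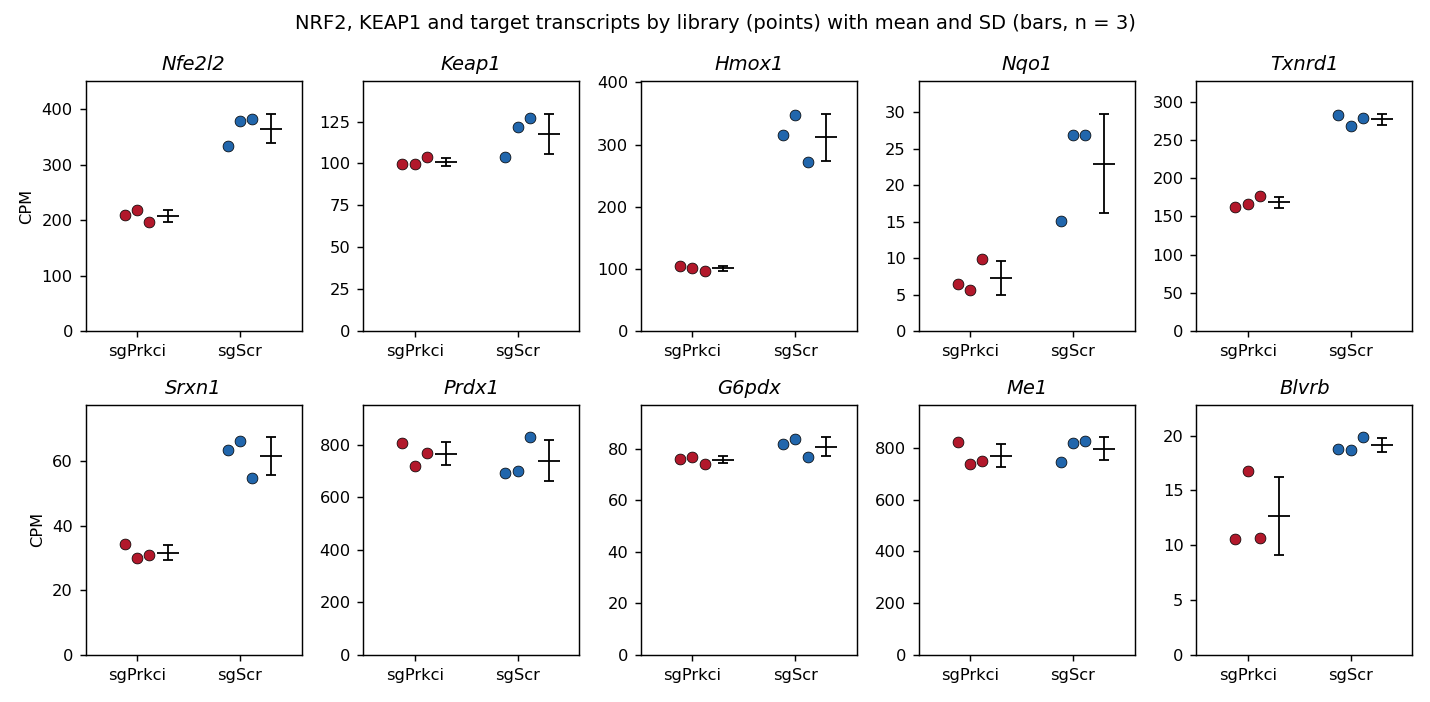
CPM of each transcript in 3 sgPrkci libraries (red points) and 3 sgScr libraries (blue points), with the mean and SD of each group as black bars and every axis starting at 0. The groups lie apart for Nfe2l2, Keap1, Hmox1, Nqo1, Txnrd1, Srxn1 and Blvrb and overlap for Prdx1, G6pdx and Me1.

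Among the regulators, Nfe2l2 (ENSMUSG00000015839, chromosome 2, 75675513 to 75704641, minus strand) had 209, 218 and 196 CPM in the sgPrkci libraries and 334, 378 and 382 CPM in the sgScr libraries. The groups did not overlap, and the lowest sgScr library stood above the highest sgPrkci library. The means were 208 ± 11.1 CPM in sgPrkci and 365 ± 26.8 CPM in sgScr (SD, n = 3 each). Nfe2l2 fell by 0.81 on the log2 scale (SE 0.08, limma adjusted p = 1.2e-08), a fall of the mean by 43.0%. Keap1 (ENSMUSG00000003308, chromosome 9, 21229730 to 21239361, minus strand) had 99.6, 99.5 and 104 CPM in sgPrkci and 104, 122 and 127 CPM in sgScr. The groups touched at their edges without overlapping. Its log2 fold change was -0.21 with a 95% interval of -0.42 to -0.01, an unadjusted limma p of 0.043 and an adjusted p of 0.11. Without sgScr replicate 1, the control library with least Keap1, the log2 fold change of Keap1 was -0.30 and passed (limma adjusted p = 0.025). With TMM scaling it was -0.11 (limma adjusted p = 0.44), with edgeR -0.12 (adjusted p = 0.42) and with DESeq2 -0.12 (adjusted p = 0.60). Gm16754, an antisense gene that shares 510 exon bases with Keap1, had 5.28 to 6.39 CPM in sgPrkci and 3.28 to 6.70 CPM in sgScr. The kit keeps strand, but the strand setting of the counting is not stated, so reads could be shared between them.

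Nfe2l2 reads per Keap1 read, a ratio that no library scaling can change, were 2.10, 2.19 and 1.89 in sgPrkci libraries and 3.21, 3.10 and 3.01 in sgScr libraries. The ratio was lower in every sgPrkci library, with means of 2.06 ± 0.155 in sgPrkci and 3.11 ± 0.0999 in sgScr (SD, n = 3 each, exact two-sided permutation p = 0.1, the smallest that 3 against 3 libraries allow). Bach1 encodes the repressor that competes with NRF2 for the same element, above all at Hmox1. It had 47.9, 51.4 and 51.5 CPM in sgPrkci and 37.5, 27.6 and 29.4 CPM in sgScr. Bach1 rose, by 0.67 on the log2 scale (SE 0.14, limma adjusted p = 0.00042). Nfe2l2 reads per Bach1 read averaged 4.14 ± 0.296 in sgPrkci and 11.9 ± 2.60 in sgScr, again without overlap (SD, n = 3 each, exact permutation p = 0.1).

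Of the heme genes, Hmox1 (ENSMUSG00000005413, chromosome 8, 75093621 to 75100589, plus strand) encodes the inducible heme oxygenase, which opens heme into biliverdin, iron and carbon monoxide. It had 105, 102 and 97.3 CPM in sgPrkci libraries and 316, 347 and 272 CPM in sgScr libraries. The sgPrkci libraries lay close together, and all were far below the lowest sgScr library. Hmox1 averaged 101 ± 3.80 CPM in sgPrkci and 312 ± 37.8 CPM in sgScr (SD, n = 3 each), and the sgPrkci mean was 0.325 of the sgScr mean. Its log2 fold change of -1.61 (SE 0.09, 95% interval -1.80 to -1.41, limma adjusted p = 6.6e-14) was the 111th lowest of the 12195 tested genes. The constitutive paralog Hmox2 averaged 41.2 ± 3.45 CPM in sgPrkci and 48.3 ± 4.73 CPM in sgScr and did not pass (log2 fold change -0.22, adjusted p = 0.21). Hmox1 reads per Hmox2 read were 2.73, 2.53 and 2.16 in sgPrkci and 5.89, 7.46 and 6.10 in sgScr. Hmox1 reads per Nfe2l2 read were also lower in every sgPrkci library, at 0.488 ± 0.0185 in sgPrkci and 0.859 ± 0.128 in sgScr (SD, n = 3 each, exact permutation p = 0.1). Macrophages are known to express Hmox1, and the macrophage receptor gene Mrc1 was higher in sgPrkci, with the values given above. The part of that difference in the Hmox1 result was not tested.

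Blvrb (ENSMUSG00000040466, chromosome 7, 27447978 to 27466144, plus strand) encodes biliverdin reductase B, which reduces flavins and biliverdin. Its values were 10.6, 16.8 and 10.7 CPM in sgPrkci and 18.8, 18.7 and 19.8 CPM in sgScr, which is 28 to 36 reads a library in sgPrkci and 56 to 57 in sgScr. The sgScr libraries were close together, and sgPrkci replicate 2 lay nearer to them than to the other sgPrkci libraries. Blvrb fell by 0.59 on the log2 scale (SE 0.20, limma adjusted p = 0.023), but this call ended in 11 of 18 other settings. Among them were TMM scaling (-0.49, adjusted p = 0.058), edgeR on the reads (adjusted p = 0.057), DESeq2 (adjusted p = 0.21) and the fits without sgPrkci replicate 1 or 3 or sgScr replicate 2 or 3 (limma adjusted p = 0.063 to 0.11). Its partner Blvra, which encodes the main reductase of biliverdin to bilirubin, fell to 30.7 ± 0.563 CPM in sgPrkci against 44.2 ± 4.83 CPM in sgScr (log2 fold change -0.51, adjusted p = 0.0052), a call that DESeq2 did not make. Blvrb reads per Blvra read averaged 0.412 ± 0.109 in sgPrkci and 0.437 ± 0.0642 in sgScr and overlapped (SD, n = 3 each, exact permutation p = 0.6).

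Nqo1 (ENSMUSG00000003849, chromosome 8, 107388225 to 107403206, minus strand) encodes the NADPH quinone dehydrogenase that reduces quinones by a pair of electrons. It had 6.41, 5.60 and 9.94 CPM in sgPrkci and 15.1, 26.9 and 26.9 CPM in sgScr, from 12 to 28 reads a library in sgPrkci and 45 to 82 in sgScr. The groups did not overlap, although sgScr replicate 1 was well below the other sgScr libraries. The means were 7.32 ± 2.31 CPM in sgPrkci and 23.0 ± 6.83 CPM in sgScr (SD, n = 3 each). Nqo1 fell by 1.52 on the log2 scale (SE 0.23, adjusted p = 9.6e-06), the 137th lowest value of all tested genes, and its 95% interval of -1.99 to -1.04 was the widest of the 10. The paralog Nqo2 averaged 24.0 ± 5.30 CPM in sgPrkci and 19.3 ± 0.803 CPM in sgScr and did not pass (log2 fold change 0.28, adjusted p = 0.23). Nqo1 reads per Nqo2 read were 0.318 ± 0.138 in sgPrkci and 1.19 ± 0.367 in sgScr (SD, n = 3 each). Hmox1 and Nqo1 lie on chromosome 8, whose better expressed genes (mean 10 CPM or more) were at a median log2 fold change of -0.28. Relative to the median of such genes on all chromosomes this was -0.20. With the chromosome 8 median removed Hmox1 stood at -1.33 (adjusted p = 5.2e-12) and Nqo1 at -1.24 (adjusted p = 0.00016).

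In the thioredoxin branch, the reductase and the repair enzyme fell while the peroxidase did not pass. Txnrd1 (ENSMUSG00000020250, chromosome 10, 82833951 to 82897712, plus strand), the cytosolic thioredoxin reductase, had 163, 166 and 176 CPM in sgPrkci and 283, 269 and 279 CPM in sgScr. Both groups were tight and lay far apart, at 168 ± 6.95 CPM in sgPrkci and 277 ± 7.40 CPM in sgScr (SD, n = 3 each). Txnrd1 fell by 0.72 on the log2 scale (SE 0.08, limma adjusted p = 1e-07). Srxn1 (ENSMUSG00000032802, chromosome 2, 152105516 to 152111376, plus strand), the gene of sulfiredoxin, had 34.3, 29.9 and 30.9 CPM in sgPrkci and 63.4, 66.3 and 54.9 CPM in sgScr. Srxn1 was lower in every sgPrkci library, averaged 31.7 ± 2.32 CPM in sgPrkci and 61.5 ± 5.89 CPM in sgScr (SD, n = 3 each), and fell by 0.93 on the log2 scale (SE 0.13, adjusted p = 2e-06). Prdx1 (ENSMUSG00000028691, chromosome 4, 116685544 to 116700822, plus strand), a peroxiredoxin that destroys hydrogen peroxide, had 806, 719 and 770 CPM in sgPrkci and 692, 699 and 828 CPM in sgScr. These ranges overlapped. Its log2 fold change of 0.05 had a 95% interval of -0.11 to 0.21, that is 0.929 to 1.16 times the sgScr level (limma adjusted p = 0.66).

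Srxn1 reads per Prdx1 read were 0.0426, 0.0416 and 0.0401 in sgPrkci libraries and 0.0915, 0.0947 and 0.0663 in sgScr libraries. The sgPrkci ratios hardly varied and all lay below the lowest sgScr ratio, with the mean at 0.492 of that of sgScr. Txn1, the thioredoxin that Txnrd1 recharges, averaged 1113 ± 176 CPM in sgPrkci and 1065 ± 38.7 CPM in sgScr and did not pass (log2 fold change 0.05, adjusted p = 0.68). Txnrd1 reads per Txn1 read were accordingly lower in every sgPrkci library, at 0.154 ± 0.0266 in sgPrkci and 0.260 ± 0.0162 in sgScr (SD, n = 3 each). Of the 8 ratios computed, 7 separated the groups, each at an exact two-sided permutation p of 0.1 and an adjusted p of 0.11 over the 8. The pairs were chosen after the values of the genes were seen. Their separation and p-values therefore add no support to the changes of the single genes.

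**Figure D2:**
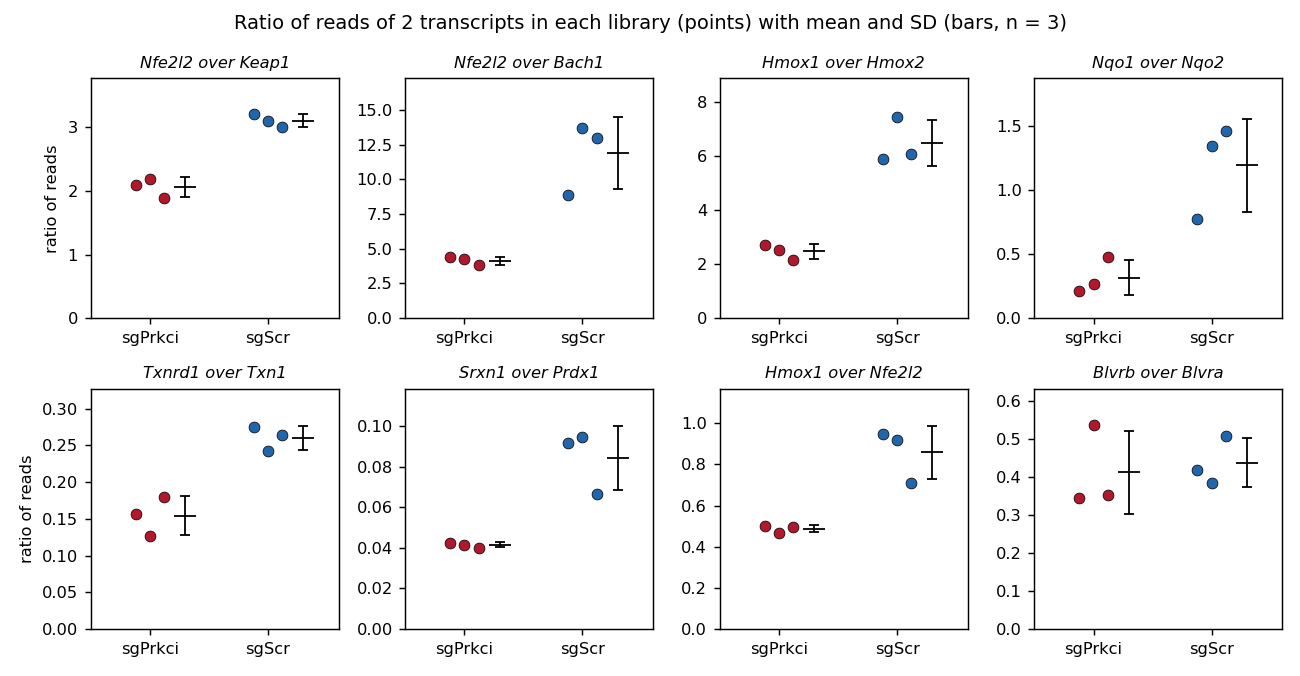
Reads of the first transcript per read of the second in each of 3 sgPrkci libraries (red) and 3 sgScr libraries (blue), with mean and SD as black bars. The groups lie apart in 7 panels, and only Blvrb over Blvra overlaps.

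Of the NADPH genes, neither member passed. G6pdx (ENSMUSG00000031400, chromosome X, 74409483 to 74429194, minus strand), the first enzyme of the pentose phosphate pathway, had 76.2, 77.1 and 74.2 CPM in sgPrkci and 81.8, 84.0 and 76.9 CPM in sgScr. Its ranges overlapped by a fraction of a CPM (log2 fold change -0.09, 95% interval -0.31 to 0.12, limma adjusted p = 0.55). Me1 (ENSMUSG00000032418, chromosome 9, 86581371 to 86695953, minus strand), the cytosolic malic enzyme, had 821, 739 and 749 CPM in sgPrkci and 747, 818 and 825 CPM in sgScr. Its ranges overlapped almost fully (log2 fold change -0.05, 95% interval -0.20 to 0.10, adjusted p = 0.65). The signs of G6pdx and Me1 turned under TMM and median-of-ratios scaling, edgeR and DESeq2, with values of at most 0.054. G6pdx shares 418 exon bases with Ikbkg on the opposite strand (47.2 to 57.4 CPM in sgPrkci and 53.2 to 57.0 CPM in sgScr) and has a near copy without introns, G6pd2, at 4.70 ± 1.21 CPM in sgPrkci and 5.29 ± 0.652 CPM in sgScr, so reads could be divided between them.

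**Figure D3:**
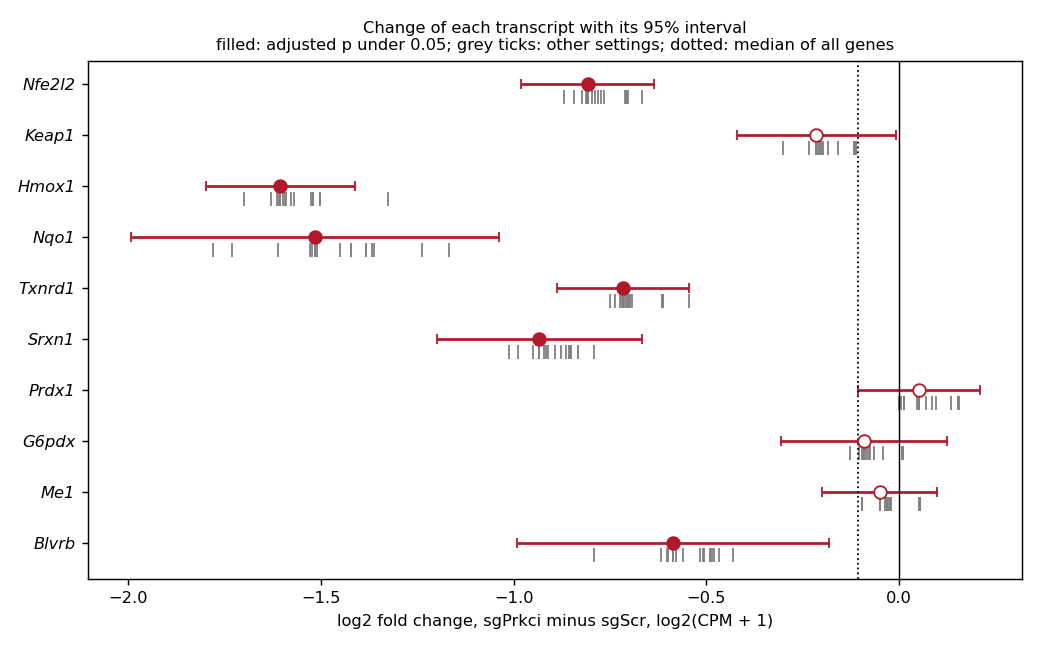
Log2 fold change of each transcript (sgPrkci minus sgScr) with its 95% interval from limma, filled where the adjusted p was under 0.05, grey ticks for the 18 other settings and a dotted line at the median of all tested genes, -0.11. Hmox1 and Nqo1 lie lowest at -1.61 and -1.52, while Prdx1, G6pdx and Me1 straddle 0.

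Motif matches stood in genes that fell and in genes that did not pass. Nfe2l2, Txnrd1 and Srxn1 had a match and fell, while Prdx1, G6pdx and Me1 had a match and did not pass. Nqo1 and Blvrb fell with no match in the window of their promoters, and bases outside that window were not searched. The Prdx1 and Me1 promoters shared the match TGACTCAGC, printed above.

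NRF2's partners, relatives and turnover machinery made up 16 tested genes, of which 4 rose and 4 fell, beside 11.4% higher and 20.5% lower among all tested genes. Their median log2 fold change was -0.14, beside -0.11. The count that fell was 2 with TMM scaling, edgeR or DESeq2 and 0 with chromosome medians removed in limma, where 1 was lower at an unadjusted p under 0.05. Those that rose were Nfe2l3, Bach1, Cul3 and Maff, and those that fell were Sqstm1, Skp1a, Rbx1 and Mafg. Nfe2l3, a relative of Nfe2l2, rose to 10.6 ± 0.929 CPM in sgPrkci against 3.53 ± 1.39 CPM in sgScr (log2 fold change 1.41, adjusted p = 0.00015). The other relative, Nfe2l1, was at 107 ± 4.63 CPM in sgPrkci and 121 ± 12.5 CPM in sgScr (adjusted p = 0.21). Sqstm1 encodes p62, which binds KEAP1 and carries it to autophagy, and is itself a target of NRF2. It fell to 251 ± 26.8 CPM in sgPrkci against 382 ± 12.4 CPM in sgScr (log2 fold change -0.61, adjusted p = 2.2e-06). Sqstm1 and Skp1a, a ligase subunit gene, lie on chromosome 11, and Rbx1, the RING subunit gene of the CUL3 ligase, on chromosome 15. The better expressed genes of chromosomes 11 and 15 were at median log2 fold changes of -0.40 and -0.37. With the median of each chromosome removed Sqstm1 stood at -0.21, Skp1a at -0.04 and Rbx1 at -0.03, and none of these 3 passed in that limma fit. Cul3, the ligase scaffold gene on chromosome 1 (median 0.18), rose by 0.28 and stood at 0.10 in that fit, also without passing. Without sgPrkci replicate 2 or sgScr replicate 2 neither Cul3 (0.26 and 0.24) nor Rbx1 (-0.28 and -0.35) passed. The calls of the small MAF genes Mafg and Maff were as weak, ending in 8 and 6 of the 18 other settings, and Mafg stood at 0.14 with chromosome medians removed. Without sgPrkci replicate 3 or sgScr replicate 3 Mafg was at -0.19 and -0.21, and without replicate 1 or 2 of sgPrkci or sgScr Maff was at 0.24 to 0.33. Bach1 and Nfe2l3 passed in each of the 18 other settings.

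Among 21 tested heme and iron genes 8 fell and 2 rose, where 20.5% of all tested genes were lower and 11.4% higher. The median was -0.27, and with DESeq2 4 of the list were lower. Cpox, an enzyme of heme synthesis, fell to 49.3 ± 5.13 CPM in sgPrkci against 93.6 ± 14.2 CPM in sgScr (log2 fold change -0.91, adjusted p = 1.3e-06). The heme transporter gene Slc48a1 fell to 59.5 ± 5.23 CPM in sgPrkci against 93.5 ± 7.59 CPM in sgScr (-0.64, adjusted p = 4.8e-05), a call that ended with the median of chromosome 15 removed. Slc40a1, which encodes the iron exporter ferroportin, had 5 reads over the sgPrkci libraries and 36 over the sgScr libraries (limma adjusted p = 0.00048). The ferritin gene Fth1 fell to 376 ± 43.2 CPM in sgPrkci against 540 ± 101 CPM in sgScr (-0.51, adjusted p = 0.0052). The 2 that rose were Slc11a2, an iron importer gene, by 0.49 and Aco1, which encodes an iron-responsive RNA-binding protein, by 0.46. Aco1 did not pass without replicate 1 of sgPrkci or sgScr (0.42 and 0.40), nor Slc11a2 without sgPrkci replicate 1 or 3 or sgScr replicate 3 (0.43, 0.46 and 0.32).

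The wider thioredoxin, peroxiredoxin and glutaredoxin system had 20 tested genes, of which 5 fell and 3 rose, at a median of -0.13. All tested genes were at 20.5% lower and 11.4% higher with a median of -0.11, close to this list, and with DESeq2 0 of the list were lower (4 at an unadjusted p under 0.05, and 4 by adjusted p in edgeR). Txnip, whose protein binds and inhibits thioredoxin, rose to 77.9 ± 15.1 CPM in sgPrkci against 18.1 ± 1.83 CPM in sgScr (log2 fold change 2.03, SE 0.15, adjusted p = 9.4e-12). Its libraries were at 89.0, 84.1 and 60.7 CPM in sgPrkci and at 16.8, 17.4 and 20.2 CPM in sgScr, far apart. Among the peroxiredoxins Prdx5 rose to 274 ± 18.6 CPM in sgPrkci against 194 ± 9.93 CPM in sgScr (0.49, adjusted p = 4.9e-05), and Prdx6 rose by 0.28 (adjusted p = 0.020). Prdx4 fell by 0.68 (adjusted p = 0.0077), and Prdx2 and Prdx3 did not pass. Prdx6 did not pass without sgPrkci replicate 1 or sgScr replicate 2 (0.25 and 0.27) or with chromosome medians removed (0.10), nor Prdx4 without sgPrkci replicate 2 (-0.43) or with DESeq2. The mitochondrial thioredoxin gene Txn2 fell by 0.55 and Sesn3, a sestrin gene, by 0.45, each of which lost its call with DESeq2, and with the median of chromosome 15 removed Txn2 stood at -0.19 without passing. The other 2 that fell were Glrx, a glutaredoxin gene, and Msra, a methionine sulfoxide reductase gene. Glrx did not pass without sgPrkci replicate 3 or sgScr replicate 1 (-0.68 and -0.61), nor Msra without replicate 1 or 3 of sgPrkci or sgScr (-0.79 to -0.75). DESeq2 called neither (adjusted p = 0.16 for Glrx and 0.26 for Msra), and Msra was lost also with no filter, TMM or quantile scaling and edgeR. The other reductase genes did not pass, with Txnrd2 at -0.16 (adjusted p = 0.73) and Txnrd3 at -0.02 (adjusted p = 0.94), and their signs turned under quantile scaling, edgeR and DESeq2, among other settings.

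Genes of NADPH supply beside G6pdx and Me1 mostly did not pass. Of 18 tested genes 13 did not pass, 4 fell and 1 rose, and the median of -0.09 was close to that of all genes, as was the share that fell to the 20.5% of all tested genes. With TMM scaling, edgeR or DESeq2 2 of the list were lower. Aldh1l2, the mitochondrial folate enzyme that makes NADPH, fell to 8.71 ± 1.01 CPM in sgPrkci against 29.2 ± 3.45 CPM in sgScr (log2 fold change -1.64, adjusted p = 5.5e-08). Nnt, the mitochondrial transhydrogenase gene, fell to 8.59 ± 2.08 CPM in sgPrkci against 17.6 ± 0.699 CPM in sgScr (-0.98, adjusted p = 0.00051). The cytosolic isocitrate dehydrogenase gene Idh1 rose to 112 ± 4.44 CPM in sgPrkci against 65.1 ± 5.07 CPM in sgScr (0.78, adjusted p = 1.3e-06). The pentose phosphate genes Pgd and Tkt fell by 0.27 each, calls that ended under TMM scaling, edgeR and DESeq2. Pgd was at -0.29 to -0.21 and did not pass without replicate 1 or 2 of sgPrkci or replicate 2 or 3 of sgScr, and Tkt was at -0.28 to -0.16 and did not pass without any 1 library other than sgPrkci replicate 1. Me2 and Me3, the other malic enzyme genes, did not pass (adjusted p = 0.79 and 0.081), nor did G6pd2 (0.70) and H6pd (0.87).

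Genes of quinone and carbonyl reduction and conjugation numbered 23, of which 7 fell and 1 rose, at a median of -0.23, beside 20.5% lower and 11.4% higher among all tested genes. With DESeq2 3 were lower and with plain eBayes moderation 4. The carbonyl reductase gene Cbr3 fell to 3.03 ± 0.677 CPM in sgPrkci against 11.5 ± 1.98 CPM in sgScr (log2 fold change -1.63, adjusted p = 1.3e-05). The epoxide hydrolase gene Ephx1 fell to 3.54 ± 0.530 CPM in sgPrkci against 10.0 ± 3.56 CPM in sgScr (-1.24, adjusted p = 0.00064). The aldehyde dehydrogenase genes Aldh2 and Aldh7a1 fell by 0.40 and 0.89, of which Aldh7a1 lost its call with DESeq2. Akr1a1, an aldehyde reductase gene that is the tested neighbour of Prdx1 on chromosome 4, was the 1 that rose, by 0.27, or by 0.22 without passing when sgScr replicate 2 was left out.

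**Figure D4:**
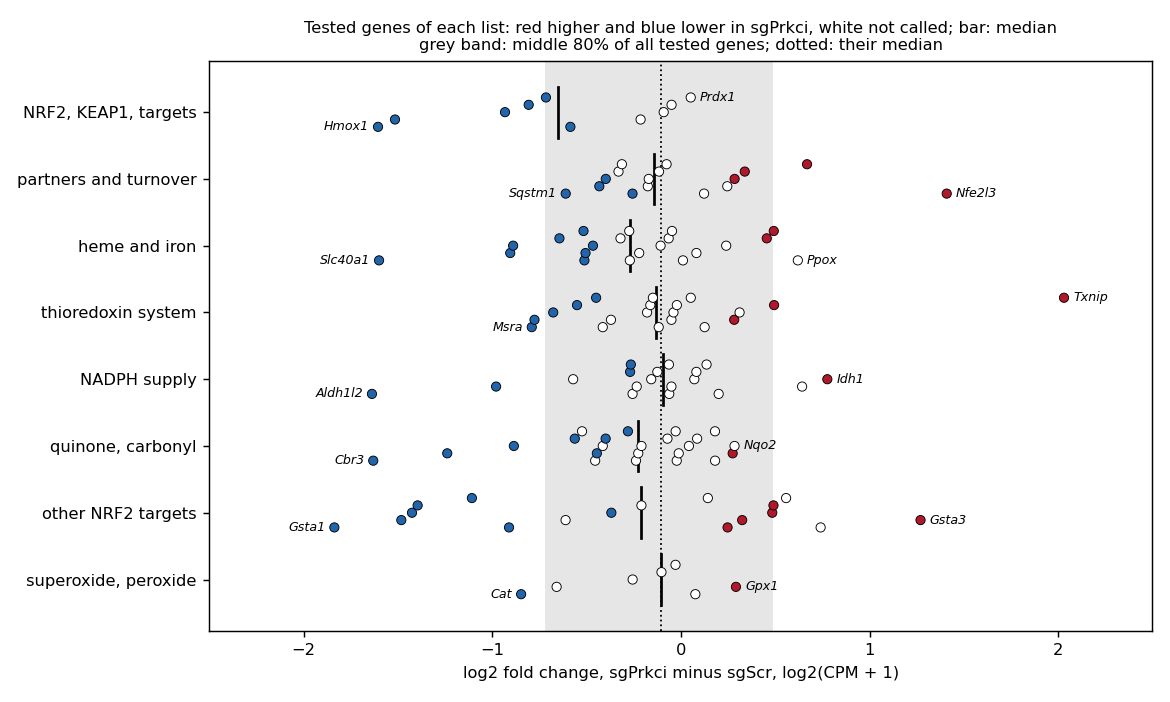
Log2 fold change (sgPrkci minus sgScr) of every tested gene of 8 lists, red where higher and blue where lower at an adjusted p under 0.05, white where not called, with the list's median as a bar. The grey band holds the middle 80% of all tested genes, -0.72 to 0.48. The 10 NRF2 pathway genes have the lowest median of the 8 lists, -0.65.

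The profile of Hmox1 over the 6 libraries, as centred log2(CPM + 1), was closest to that of Dmpk, Golim4 and Gstm1 among the 7988 tested genes with a mean of 10 CPM or more (Euclidean distances of 0.196, 0.305 and 0.313). Gstm1 encodes a glutathione transferase and had 21.8 ± 1.42 CPM in sgPrkci and 62.7 ± 1.48 CPM in sgScr. Nearest to Nfe2l2 were Nars, Hnrnpab and Psph, at distances of 0.0656, 0.0656 and 0.0928. Psph, an enzyme gene of serine synthesis, averaged 170.2 ± 9.33 CPM in sgPrkci and 310 ± 31.9 CPM in sgScr. Nearest to Keap1 were Mysm1, Desi2 and Rex1bd (0.0724, 0.0775 and 0.0874). Nearness here includes a like difference between the groups and says nothing of shared function.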

How the data were processed

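A 3' tag kit with optional molecular identifiers was used on 200 ng of RNA, per the labels' protocols. Reads were placed on GRCm38, as named in the submitters' processing notes. The sources used here do not name the aligner, the counter, its strand setting or how identifiers were handled. The authors deposited CPM, reads scaled to the library total, for 20756 genes in 6 columns. All values (100% within 1e-06 of a read) were whole multiples of 1 read, so whole reads were recovered. No 2 libraries agreed within sampling noise (chi-square per degree of freedom 1.63 to 3.18 within groups).

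Genes were named from GENCODE M21 by identifier (20675 matched). Those with at least 1 CPM in at least 3 libraries were tested in R 4.3.3 by limma 3.58.1, with log2(CPM + 1) as input, trended and robust moderation, two-sided, with Benjamini-Hochberg adjustment. Of all calls 1387 (35.7%) were higher and 2495 lower in sgPrkci. With TMM factors these were 1918 (51.4%) and 1816. On the recovered reads edgeR 4.0.16 called 1939 higher and 1815 lower. DESeq2 1.42.0 and the settings of the closing section were further alternatives. The fit was also run on simulated reads with few changed genes and no shift of whole chromosomes. Such data differ from these, so that run does not check the calls made here. "Rose" and "fell" mean past an adjusted p of 0.05 in limma.

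The 10 genes and the lists were chosen with earlier results of these data known. Named beside them were paralogs, up to 4 called genes of a list with the lowest p and the nearest profiles. Members named for counts of 5 or fewer were chosen after their values were seen. The replicate numbers pair nothing. Floors and intervals cover counting or library error only.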

Additional observations from a re-analysis of the deposited data

How the results depend on the processing

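The calls of Nfe2l2, Hmox1, Nqo1, Txnrd1 and Srxn1 held, with the same sign, in each of the 18 other settings: pseudocounts of 0.25 and 5 CPM, no filter, 5 CPM as the filter, scaling by TMM, median of ratios or quantiles, plain eBayes moderation, edgeR, DESeq2, removal of chromosome medians, removal of Gm42418 and mitochondrial reads from the totals (added after seeing the data), and each library left out. Over the 12 that kept all libraries, the log2 fold change of Hmox1 was -1.61 to -1.33, of Nqo1 -1.61 to -1.17, of Srxn1 -0.95 to -0.79, of Nfe2l2 -0.82 to -0.67 and of Txnrd1 -0.72 to -0.55. Blvrb lost its call in 11 settings and Keap1 gained one in 1, so that 5 to 7 of the 10 genes were lower when a library was left out. Of all tested genes 1118 were lower with DESeq2 and 1624 with chromosome medians removed, against 2495 in limma; the cause was not tested. With a library left out 1758 to 2424 were lower and 1091 to 1370 higher. Of the list genes named, Fth1, Prdx4, Prdx6, Aldh2, Akr1a1, Cul3, Rbx1, Mafg, Maff, Slc11a2, Pgd and Tkt also lost their calls with plain eBayes moderation. For the 14 counts of list members 51 of 252 values moved by over 1.5 times. No paired analysis was possible because the labels number no replicates: the numbers 1 to 3 used here name the libraries of a group in deposited order and link no library of sgPrkci to one of sgScr. Depth limits Nqo1 in sgPrkci (12 to 28 reads a library) and Blvrb (28 to 36).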

Other observations

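The genes next to the 10 on their chromosomes did not share their changes throughout. Of 20 neighbouring tested genes 4 were lower, 3 were higher and 13 did not pass in limma. These counts are near the shares of all tested genes, 20.5% lower and 11.4% higher. Of the lower neighbours Gm13657, Chst11 and Gab3 averaged at most 0.39 CPM in sgPrkci. The neighbours Gm16754, Ikbkg and Gm38230 overlap Keap1, G6pdx and Me1. Mcm5, beside Hmox1, fell to 35.9 CPM in sgPrkci against 65.9 CPM in sgScr (log2 fold change -0.83, limma adjusted p = 7.3e-05). Nfat5, beside Nqo1, rose to 128 CPM in sgPrkci against 89.1 CPM in sgScr (0.52, limma adjusted p = 0.00035).

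Of 7 tested superoxide and peroxide enzyme genes outside the NRF2 lists 1 fell and 1 rose, where 20.5% of all tested genes were lower and 11.4% higher. Catalase (Cat) fell to 37.0 ± 2.27 CPM in sgPrkci against 67.6 ± 8.09 CPM in sgScr (log2 fold change -0.85, limma adjusted p = 5.6e-06). Gpx1 rose to 459 ± 26.9 CPM in sgPrkci against 375 ± 14.2 CPM in sgScr (0.29, limma adjusted p = 0.0045), a call that ended with plain eBayes moderation. Among 17 tested genes known as NRF2 targets elsewhere, most of them of glutathione metabolism, 7 fell and 5 rose, with a median of -0.21, against the same shares of all tested genes. With TMM scaling, edgeR or DESeq2 5 of this list were lower and 6 higher. Of those that fell, Osgin1 lost its call in 12 other settings and Abcc1 in 8. Of those that rose, Abcc4 and Gsta4 lost theirs in 7 each. Gclc, the catalytic subunit gene of glutathione synthesis, fell to 105 ± 4.78 CPM in sgPrkci against 278 ± 15.6 CPM in sgScr, and Gsta3, a glutathione transferase gene, rose to 76.8 ± 1.21 CPM in sgPrkci against 31.9 ± 7.60 CPM in sgScr (limma adjusted p = 4e-13 and 5.4e-08).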
